A study of Mus musculus with 21 samples.

Results

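Obox1, Obox2, Obox3, Obox5 and Obox6 are 5 protein-coding members of the oocyte-specific homeobox family, and all 5 lie in the Obox cluster on mouse chromosome 7. They were chosen by name, and 16 of the 22612 transcripts merged from long reads were assigned to them by exon overlap on the same strand, out of 18333 that could be assigned to 10917 genes. The samples were sperm of DBA/2J males, mature oocytes of C57/BL6J females, and embryos of the cross between them as 1-cell embryos, at 3 later cleavage stages (2-cell to 8-cell) and as blastocysts. Females 3 to 5 weeks old were superovulated with 7.5 IU of PMSG and, 48 h later, 7.5 IU of hCG, and embryos grew in KSOM medium after collection. Oocytes were lysed 20 h after hCG, 1-cell embryos at 24 to 26 h, 2-cell embryos at 46 to 48 h, 4-cell embryos at 54 to 58 h, 8-cell embryos at 68 to 70 h and blastocysts at 94 to 96 h. Each stage had 2 short-read libraries, each from a separate batch of pooled gametes or embryos, and 1 long-read library that mixed both batches. The samples are untreated and wild-type, and the protocol text names the male strain as DBA/2N where the labels give DBA/2J.

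Homeobox genes encode transcription factors that bind DNA through a homeodomain. Obox genes belong to the paired-like group of these, are known from mice for their expression in oocytes and early embryos, and have been tied to the activation of the embryonic genome. In that step the embryo begins its own transcription while messenger RNAs stored by the oocyte are degraded, and the minor and major waves of activation in the mouse fall in the 1-cell and 2-cell embryo.

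GENCODE vM21 lists 55 Obox genes, 53 of them on chromosome 7 between 14331436 and 15839678 (GRCm38, the assembly of mm10), and classes 47 as pseudogenes, 7 as protein coding and 1 as a long noncoding RNA. Merged long-read transcripts were assigned to 11 of the 55. Those were the 5 members and Obox7, Obox8, Obox3-ps2, Obox3-ps3, Obox3-ps5 and Obox4-ps35, with 25 transcripts in all. Obox2 (ENSMUSG00000074369.12, chr7:15388721-15398545), Obox1 (ENSMUSG00000054310.16, chr7:15388948-15556866) and Obox5 (ENSMUSG00000074366.9, chr7:15750131-15759800) are on the plus strand. On the minus strand lie Obox3 (ENSMUSG00000066772.12, chr7:15479825-15639902) and Obox6 (ENSMUSG00000041583.8, chr7:15833241-15839678).

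The middle one of the 3 annotated coding exons of Obox1, Obox2, Obox5, Obox7 and Obox3 is shown as an example of their similarity. Among the members, shared sequence limits mainly the values of Obox1, Obox2 and Obox5 below. Capitals mark bases that differ from Obox1 after alignment, on GRCm38 and in the direction of transcription. The last line is the stretch of the Obox6 coding region that aligned best to the same exon of Obox1.
Obox1 (chr7:15555505-15555704, plus strand): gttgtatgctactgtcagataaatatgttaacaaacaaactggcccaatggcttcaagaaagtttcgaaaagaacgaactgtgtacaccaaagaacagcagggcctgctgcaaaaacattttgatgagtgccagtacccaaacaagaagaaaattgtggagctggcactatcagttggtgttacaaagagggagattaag
Obox2 (chr7:15397188-15397386, plus strand): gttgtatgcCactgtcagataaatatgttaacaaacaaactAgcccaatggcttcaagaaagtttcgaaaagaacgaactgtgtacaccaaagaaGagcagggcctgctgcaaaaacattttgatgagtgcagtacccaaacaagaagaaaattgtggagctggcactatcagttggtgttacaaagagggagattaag
Obox5 (chr7:15757879-15758078, plus strand): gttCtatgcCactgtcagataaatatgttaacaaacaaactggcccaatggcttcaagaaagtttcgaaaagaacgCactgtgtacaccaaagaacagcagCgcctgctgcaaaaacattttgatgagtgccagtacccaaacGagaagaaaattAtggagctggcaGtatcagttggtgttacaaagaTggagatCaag
Obox7 (chr7:14664380-14664579, plus strand): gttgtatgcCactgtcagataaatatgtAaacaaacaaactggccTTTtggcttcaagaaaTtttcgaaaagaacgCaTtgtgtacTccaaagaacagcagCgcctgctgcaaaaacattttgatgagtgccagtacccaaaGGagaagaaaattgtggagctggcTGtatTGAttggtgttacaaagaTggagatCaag
Obox3 (chr7:15626796-15626995, minus strand): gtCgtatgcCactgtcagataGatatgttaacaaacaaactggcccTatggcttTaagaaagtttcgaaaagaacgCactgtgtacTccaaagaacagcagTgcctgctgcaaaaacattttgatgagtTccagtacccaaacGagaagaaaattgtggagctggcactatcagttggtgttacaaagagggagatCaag
Obox6 (chr7:15834384-15834575, minus strand): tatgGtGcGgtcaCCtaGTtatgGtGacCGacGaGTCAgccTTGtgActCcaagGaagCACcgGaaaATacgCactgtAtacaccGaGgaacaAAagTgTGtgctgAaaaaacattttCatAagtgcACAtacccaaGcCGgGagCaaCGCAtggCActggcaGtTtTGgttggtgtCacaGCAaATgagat

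Obox2 differed from Obox1 at 3 bases of this exon and lacked 1, so that its exon has 199 bases where that of Obox1 has 200. Its annotated coding region is shorter as well, with 453 bases in Obox2 and 612 in Obox1. Obox5 differed from Obox1 at 9 bases, Obox3 at 11 and Obox7 at 19. The Obox6 stretch of 192 bases matched Obox1 at 128, an identity of 66.7%. By this exon Obox1, Obox2, Obox3 and Obox5 are thus close to one another, with identities of 93.5% to 98.0%, and Obox6 is set apart.

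How far short reads can be told apart was measured as the share of 31-base words of a gene's merged transcripts that also occur in transcripts of other genes. This share was 78.1% in Obox2, 67.8% in Obox1 and 38.9% in Obox5. It was 2.77% in the only merged transcript of Obox3 and 1.07% in Obox6. That Obox3 transcript holds 0 of the 1005 annotated coding bases, so its share does not cover the coding exons of Obox3. Words with unplaced bases were left out, and 83.84% of the bases of TCONS_00018601 of Obox6 were placed. Over all 18100 assigned transcripts with at least 100 words the median share was 0.00%, and 4.72% of them shared more than 50% of their words. Most of the overlap was between Obox1 and Obox2, where 63.7% of the words of Obox1 occurred in Obox2 and 71.1% of the words of Obox2 in Obox1. Words as long as the reads shared less. With 150 bases the share was 31.4% in Obox2, 26.3% in Obox1 and 0.00% in Obox5. The levels of Obox1 and Obox2 therefore rest in part on how the quantifier divided reads that fit both genes, and their sum with Obox5 is given below beside the single genes.

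**Figure D1:**
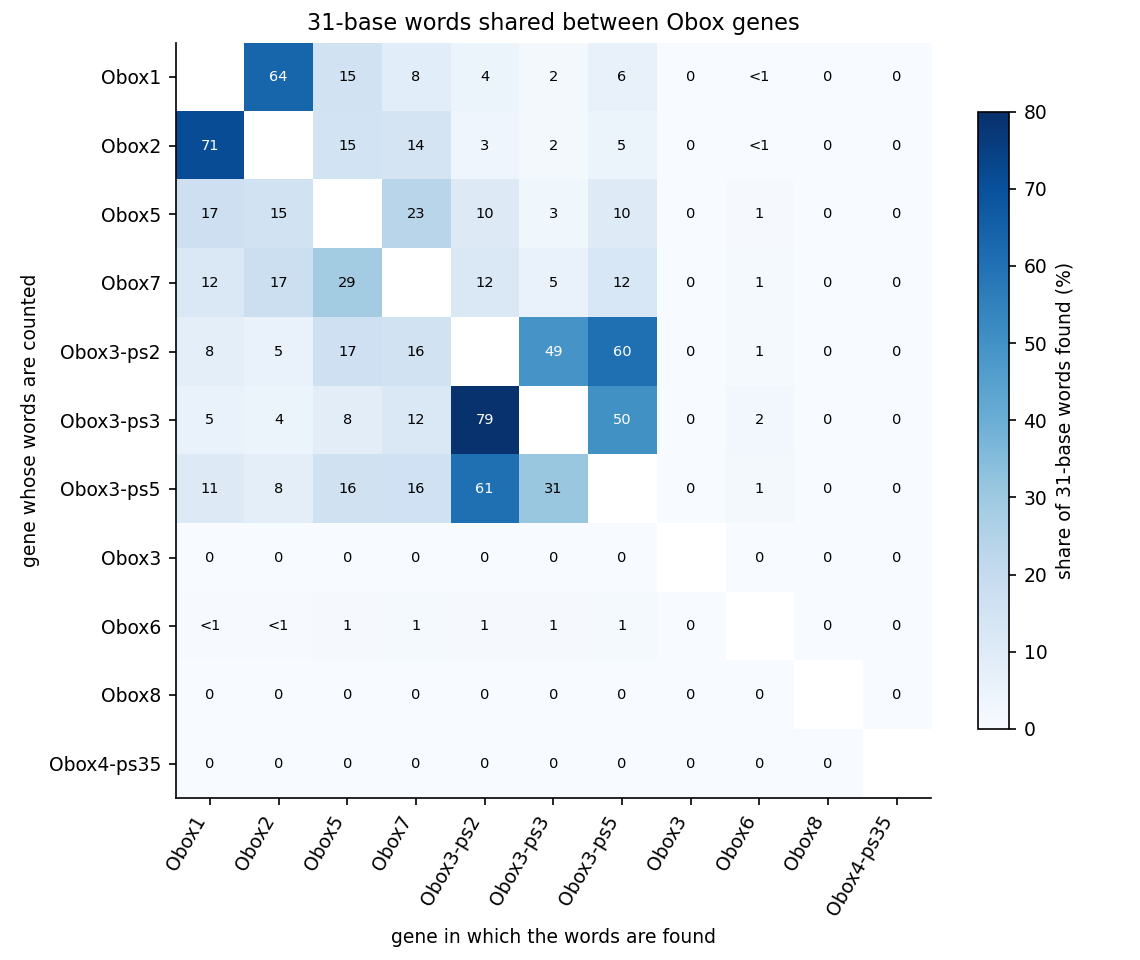
Share of the 31-base words of each Obox gene (rows) that occur in another Obox gene (columns), in percent and coloured by size. Obox1 and Obox2 share 63.7% and 71.1% of their words, the 3 Obox3 pseudogenes also overlap one another, and Obox6, Obox3, Obox8 and Obox4-ps35 are nearly free of shared words. Only words of placed bases were counted, and just 34.68% of the bases of the Obox4-ps35 transcript were placed. The words of Obox3 come from 1 transcript of 391 bases that holds 0 of its coding bases.

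Expression is given as TPM, the authors' length-corrected share of each transcript in a library scaled to a fixed total, summed over the transcripts of a gene. TPM by itself keeps no read depth, so no counting error is given. TPM is a share of the RNA of a library, so fewer cells of a type and less RNA per cell cannot be told apart, and a change in TPM is not a change in molecules per embryo. Sperm libraries held 14002 and 20767 TPM of 5 sperm markers, and oocyte libraries 5063 and 16143 TPM of 6 oocyte markers. Most of the oocyte sum was Gdf9, at 4176 and 15568 TPM. Zp1, Zp3 and Bmp15 were also higher in oocyte replicate 2, while Zp2 and Oosp1 were lower there. In the 2 blastocyst libraries 6 blastocyst markers summed to 9426 and 35449 TPM. Of 7 cumulus cell markers only 1 had a merged transcript, at no more than 0.481 TPM from oocyte to blastocyst. The 2-cell libraries stood apart from each other, with a median SD between replicates of 1.04 on the log2 scale against 0.19 to 0.67 in the other 5 stages from oocyte to blastocyst. Replicate 2 held more of both the oocyte markers (1255 against 107 TPM) and the 2-cell genes (936 against 72.5 TPM for 13 genes). Every Obox member was also higher in 2-cell replicate 2 than in replicate 1. The changes of the members from 1-cell to 2-cell are therefore also given without 1 of these libraries, and for Obox1, Obox2 and Obox3 without each in turn. The paper lists read totals for each library, with more reads for 2-cell replicate 2 than for replicate 1 by its numbering. These totals were not used here, and what sets the 2 libraries apart was not tested.

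Obox1, Obox2 and Obox5 were among the most abundant transcripts of the oocyte and fell from the 1-cell to the 2-cell stage, while Obox6 was near 0 before and rose at the same step. Of the 5 members, 4 were called from 1-cell to 2-cell by limma at a Benjamini-Hochberg adjusted p under 0.05, 3 lower and 1 higher, over 10000 genes tested. Among all genes 32.3% were called there, 6.20% lower and 26.1% higher, and the median gene shifted by 0.72 on the log2 scale. Changes are in log2(TPM + 1), which understates the change of low genes.

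Obox1 had 1715 and 382 TPM in the oocyte libraries and 873 and 707 TPM in the 1-cell libraries. The 2-cell libraries had 6.19 and 101 TPM, and the 4-cell libraries 8.40 and 7.14 TPM. It had at most 0.758 TPM in sperm, 8-cell embryos and blastocysts. Every oocyte and 1-cell library was thus above every later library, and oocyte and 1-cell overlapped. From 1-cell to 2-cell Obox1 fell by 4.86 (SE 1.04, adjusted p = 0.00314 by limma), or 5.58 below the shift of the median gene. It fell by 2.95 without 2-cell replicate 1 (limma adjusted p = 0.0167) and fell by 6.77 without 2-cell replicate 2 (adjusted p = 6.76e-05), so its size depends on which 2-cell library is used.

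Obox2 reached 2353 and 487 TPM in the oocyte and 469.9 and 518 TPM at the 1-cell stage. By mean it was number 92 of 10917 genes in the oocyte and number 244 in 1-cell embryos. It had 3.84 and 48.0 TPM at the 2-cell stage and 7.58 and 5.22 TPM at the 4-cell stage, and at most 0.572 TPM in sperm, 8-cell embryos and blastocysts. As for Obox1, no later library reached the level of any oocyte or 1-cell library. Obox2 fell by 5.01 from 1-cell to 2-cell (SE 0.99, limma adjusted p = 0.00193), fell by 3.34 without 2-cell replicate 1 (adjusted p = 0.00913) and fell by 6.68 without 2-cell replicate 2 (adjusted p = 8.57e-05).

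Obox5 was present at 896 and 285 TPM in the oocyte and 683 and 608 TPM at the 1-cell stage. The 2-cell libraries gave 13.5 and 368 TPM, and the higher one exceeded an oocyte library. At the 4-cell stage Obox5 had 12.7 and 16.8 TPM, and it had at most 0.962 TPM in sperm, 8-cell embryos and blastocysts. Its fall of 3.14 from 1-cell to 2-cell (SE 1.12) passed the threshold only narrowly (limma adjusted p = 0.0447). The call was lost in 16 of 22 alternatives, and without 2-cell replicate 1 Obox5 fell by 0.81 (adjusted p = 0.465).

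Because these 3 genes share reads, their sum was formed as well. Obox1, Obox2 and Obox5 together made up 4963 and 1153 TPM in the oocyte, 2026 and 1834 TPM in 1-cell embryos and 23.5 and 517 TPM in 2-cell embryos. Their sum was 28.7 and 29.2 TPM in 4-cell embryos and at most 2.29 TPM in 8-cell embryos. The sum of the 3 therefore also ran lower in each later library than in each oocyte or 1-cell library, whatever the division of reads between them.

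Obox6 ran the other way. It had 0.0360 and 0.0448 TPM in the oocyte and 1.08 and 0.107 TPM at the 1-cell stage, then 73.1 and 287 TPM at the 2-cell stage. The 4-cell libraries held 1210.4 and 1226 TPM, the highest level of Obox6, with rank 78 of 10917 genes by mean. It had 341 and 209 TPM at the 8-cell stage, 4.59 and 0.167 TPM in blastocysts and 0.619 and 2.62 TPM in sperm. The 4-cell libraries did not overlap the 8-cell libraries, the 8-cell and 2-cell libraries overlapped, and both were above every blastocyst library. From 1-cell to 2-cell Obox6 rose by 6.59 (SE 0.86, limma adjusted p = 0.000179), and by 5.61 without 2-cell replicate 2 (adjusted p = 0.000306).

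From 8-cell to blastocyst Obox6 fell by 6.71 (SE 0.86, limma adjusted p = 0.0012), where it was the only member called and 3.00% of all genes were called, 1.49% lower. Without blastocyst replicate 2 it fell by 5.58 (adjusted p = 0.0194). The change from 2-cell to 4-cell was 3.06 (SE 0.86) and missed the threshold (limma adjusted p = 0.0609), with 0 of 5 members called and 3.40% of all genes. At an unadjusted p under 0.05 there were 2 members, Obox3 and Obox6, and 2453 of all 10000 genes. Without 2-cell replicate 2 the change of Obox6 was 4.04 and passed (adjusted p = 0.0133). From 4-cell to 8-cell the change was -2.19 (SE 0.86, limma adjusted p = 0.225), with 0 of 5 members called and 1.67% of all genes. At an unadjusted p under 0.05 there were 4 members, with Obox3 the exception, and 1568 of all 10000 genes. The change of Obox6 passed when the spread was weighted by stage (adjusted p = 0.000179) or estimated on the 4 libraries alone (adjusted p = 0.00381), and 4 of 5 members did so in each of these 2 fits, where 3921 of 10000 and 3482 of 9176 genes tested were called. Between oocyte and 1-cell 0 of 5 members were called by limma, against 0.380% of all genes. At an unadjusted p under 0.05 there were 0 members and 920 of all 10000 genes.

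Obox3 was represented by a single merged transcript of 391 bases and 1 exon (chr7:15625308-15625698), which holds 0 of the 1005 annotated coding bases of the gene and was seen in long reads at the 2-cell stage only. It lies at the 3' end of the last annotated exon of the main isoforms. It had 5.68 and 3.31 TPM in the oocyte, 11.2 and 2.98 TPM at the 1-cell stage, 4.65 and 45.9 TPM at the 2-cell stage and 4.74 and 1.00 TPM at the 4-cell stage. Sperm had 2.70 and 18.2 TPM, 8-cell embryos 2.97 and 0 TPM, and blastocysts 1.27 and 1.19 TPM. All neighbours in the order of its stages overlapped. The change from 1-cell to 2-cell was 1.22 (SE 0.98, limma adjusted p = 0.362), and 2.75 without 2-cell replicate 1 (adjusted p = 0.0248). Reads of the coding exons of Obox3, shown above to be close to those of Obox1 and Obox5, had no Obox3 transcript to be assigned to, and where they went was not tested.

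**Figure D2:**
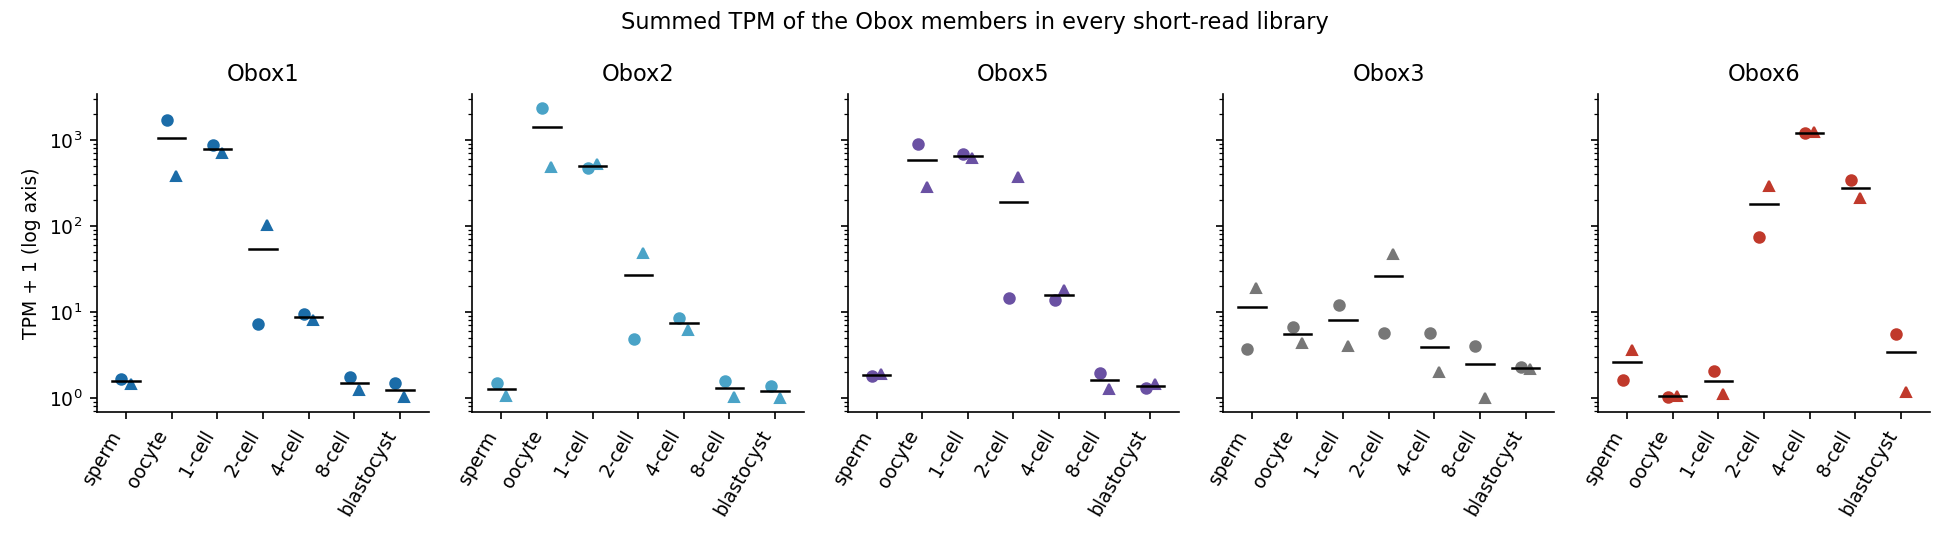
Summed TPM of the 5 Obox members in the 14 short-read libraries, as TPM + 1 on a log axis, with circles for replicate 1, triangles for replicate 2 and a line at the mean. Obox1, Obox2 and Obox5 are high in oocyte and 1-cell libraries, Obox6 peaks in the 4-cell libraries (1210.4 and 1226 TPM), and the 2-cell replicates lie far apart for each gene.

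**Figure D3:**
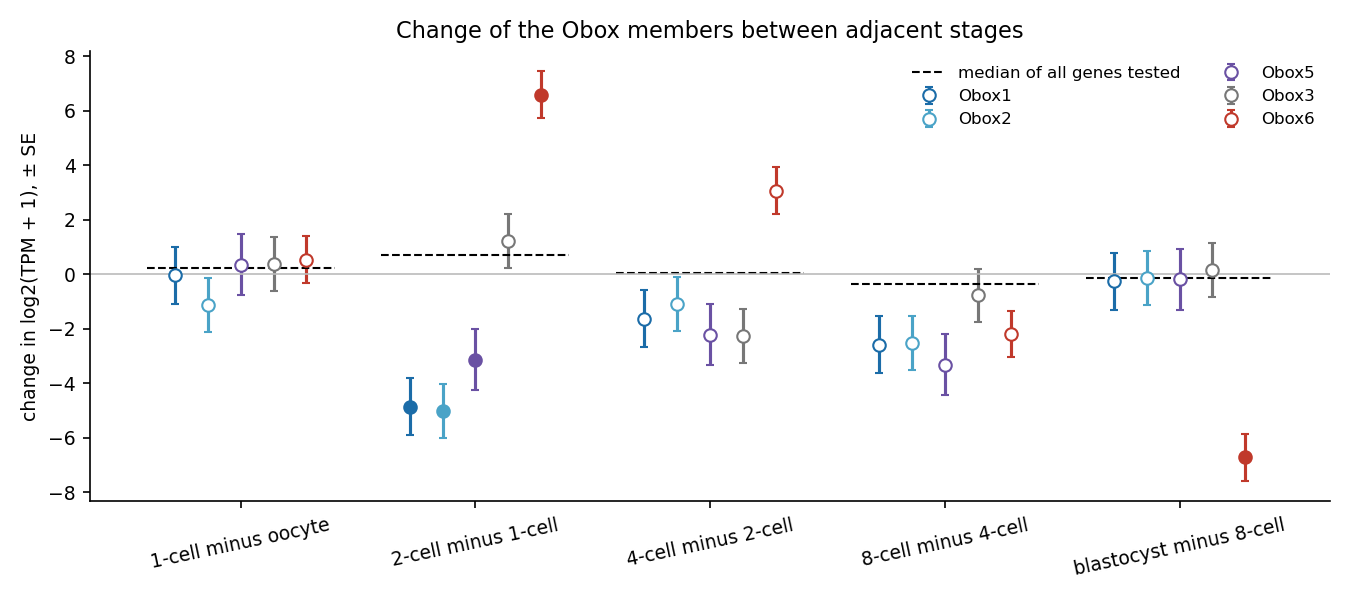
Change of the 5 members between adjacent stages in log2(TPM + 1), with the SE of the limma fit over 12 libraries; filled points have an adjusted p under 0.05, open points do not, and dashed lines are the median of all 10000 genes. The 4 filled points from 1-cell to 2-cell are Obox1, Obox2 and Obox5 below 0 and Obox6 above it, and the other filled point is Obox6 from 8-cell to blastocyst.

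Pooling the stages gave the same division of the members. Against the mean of oocyte and 1-cell, the mean of the cleavage stages from 2-cell to 8-cell fell by 6.83 in Obox1 (SE 0.67, limma adjusted p = 1.24e-06). In Obox2 it fell by 7.12 (SE 0.64, adjusted p = 6.00e-07) and in Obox5 it fell by 5.55 (SE 0.72, adjusted p = 1.40e-05), both by limma. Obox6 was higher by 8.17 (SE 0.55, limma adjusted p = 9.16e-08). That is 4 of 5 members called, but 68.0% of all genes were called in this contrast, 20.5% lower and 47.5% higher, and the median gene moved by 0.96. The call by itself therefore hardly sets the members apart, and their distance from the median gene does so only as a description, at -7.79 in Obox1 and 7.21 in Obox6. Obox3 changed by -0.35 (SE 0.63, limma adjusted p = 0.633), and its sign turned without 2-cell replicate 1 (0.16) or 1-cell replicate 1 (0.05), while after quantile normalization it fell by 1.48 (limma adjusted p = 0.0334) and, in an alternative chosen after seeing the data, without both 2-cell libraries it fell by 1.24 (adjusted p = 0.0358).

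The libraries of the 2 periods did not overlap for Obox1 (382 to 1715 against 0.222 to 101 TPM), Obox2 (469.9 to 2353 against 0.0348 to 48.0 TPM) and Obox6 (0.0360 to 1.08 against 73.1 to 1226 TPM). Among all genes 6.48% had no overlap in the lower direction and 32.8% in the higher. The Obox5 libraries overlapped, at 285 to 896 against 0.274 to 368 TPM. An exact two-sided permutation test of 4 against 6 libraries gave an unadjusted p = 0.00952 for Obox1, Obox2 and Obox6, the smallest that its 210 splits allow. That value follows from the lack of overlap and adds nothing to it. The test also shuffles single libraries, although they come 2 to a stage. The same exact test gave p = 0.019 for Obox5 and p = 0.724 for Obox3, so 5 such tests were run.

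Long reads gave the structures behind these levels. Member transcripts numbered 16 in the oocyte library, 15 in the 1-cell, 6 in the 2-cell, 2 in the 4-cell and 2 in the 8-cell library, with 0 in sperm and blastocyst. In the oocyte they were 4 of Obox1, 7 of Obox2 and 5 of Obox5. Obox6 had 2 in each library from 2-cell to 8-cell and 0 elsewhere. With 1 long-read library per stage these numbers have no replicate check. A gene entered the merged annotation only through stages where long reads found it, for Obox6 those from 2-cell to 8-cell.

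**Figure D4:**
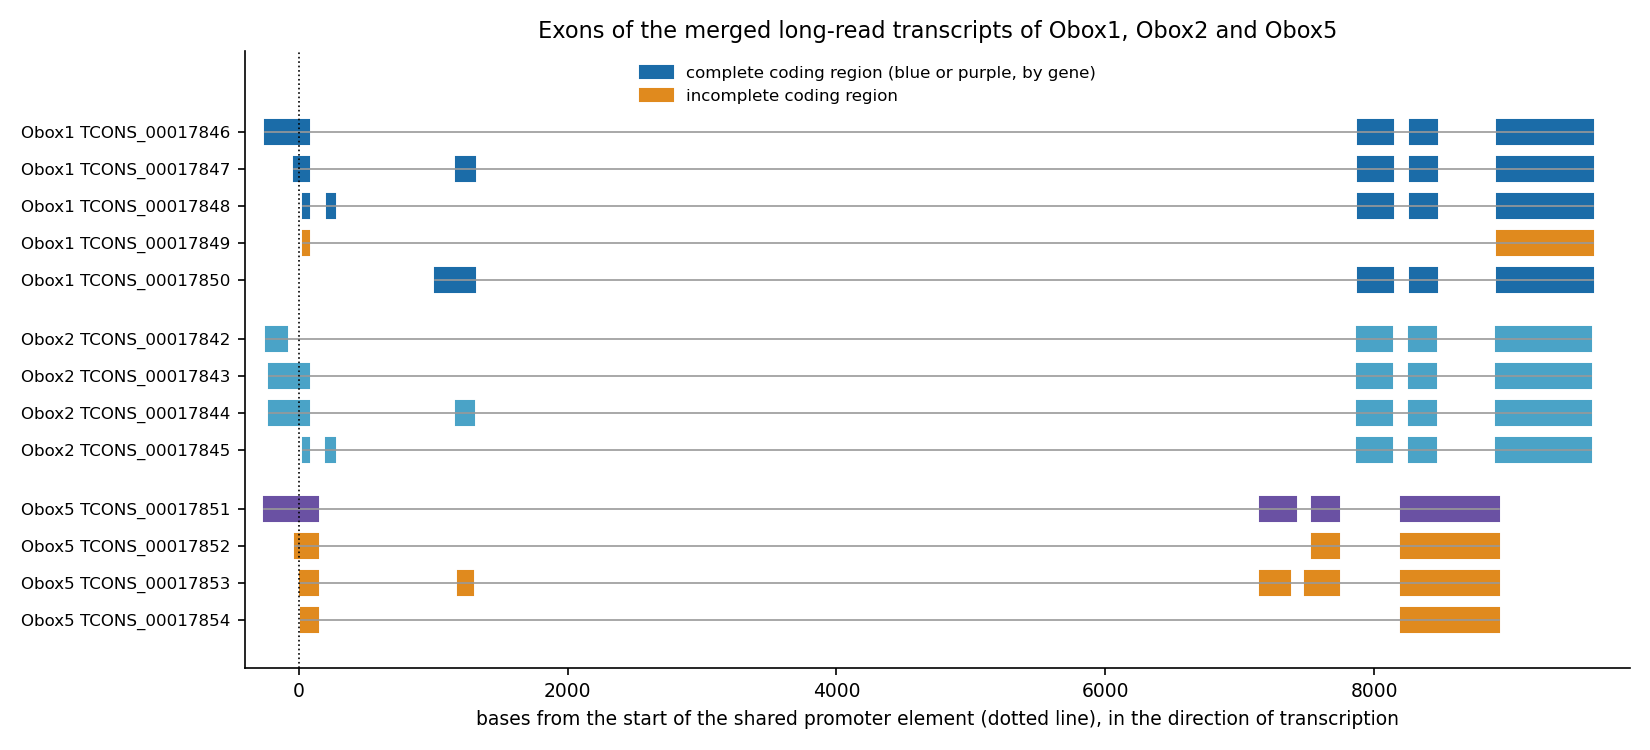
Exons of the 13 merged transcripts of Obox1, Obox2 and Obox5, drawn to scale by distance in bases from the shared promoter element, with blue or purple for a complete annotated coding region and orange for an incomplete one. Of the 4 orange transcripts, the 2 with 2 exons (TCONS_00017849 of Obox1 and TCONS_00017854 of Obox5) join the leading exon straight to the last exon.

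Obox1 had 5 merged transcripts, and 4 of them hold all 612 annotated coding bases. The exception, TCONS_00017849, has 2 exons and 195 coding bases, because it leaves out both internal coding exons, the one that holds the start codon included. It was the most abundant of the 5, with 751 and 161 TPM in the oocyte and 428 and 288 TPM at the 1-cell stage. It took 43.8% and 42.3% of the TPM of Obox1 in the oocyte libraries and 49% and 40.8% in the 1-cell libraries. The annotated 4-exon transcript TCONS_00017846 had 359.7 and 118 TPM in the oocyte and 172 and 195 TPM at the 1-cell stage.

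A transcript of the same form occurred in Obox5. TCONS_00017854 also has 2 exons, lacks both internal coding exons and keeps 456 of 873 coding bases. It had 309 and 52.1 TPM in the oocyte and 230.3 and 145 TPM at the 1-cell stage, or 34.5%, 18.3%, 33.7% and 23.9% of the TPM of Obox5. Only TCONS_00017851 of the 4 Obox5 transcripts holds the complete coding region, with 39.9% and 57.5% of the TPM of the gene in the oocyte and 47.2% and 55.3% at the 1-cell stage. TCONS_00017852, which lacks the exon with the start codon, had 215 and 65.4 TPM in the oocyte. All 4 transcripts of Obox2 and both of Obox6 hold the complete annotated coding region.

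The 2-exon transcripts differ from their longer partners almost only by 1 exon junction. No more than 3.95% of the 31-base words of TCONS_00017849 and 3.52% of those of TCONS_00017854 occurred in no other merged transcript, so their TPM rests on few telling reads. In 2-cell replicate 1 both were listed at 0 TPM, against 53.4 TPM and 147 TPM in 2-cell replicate 2.

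**Figure D5:**
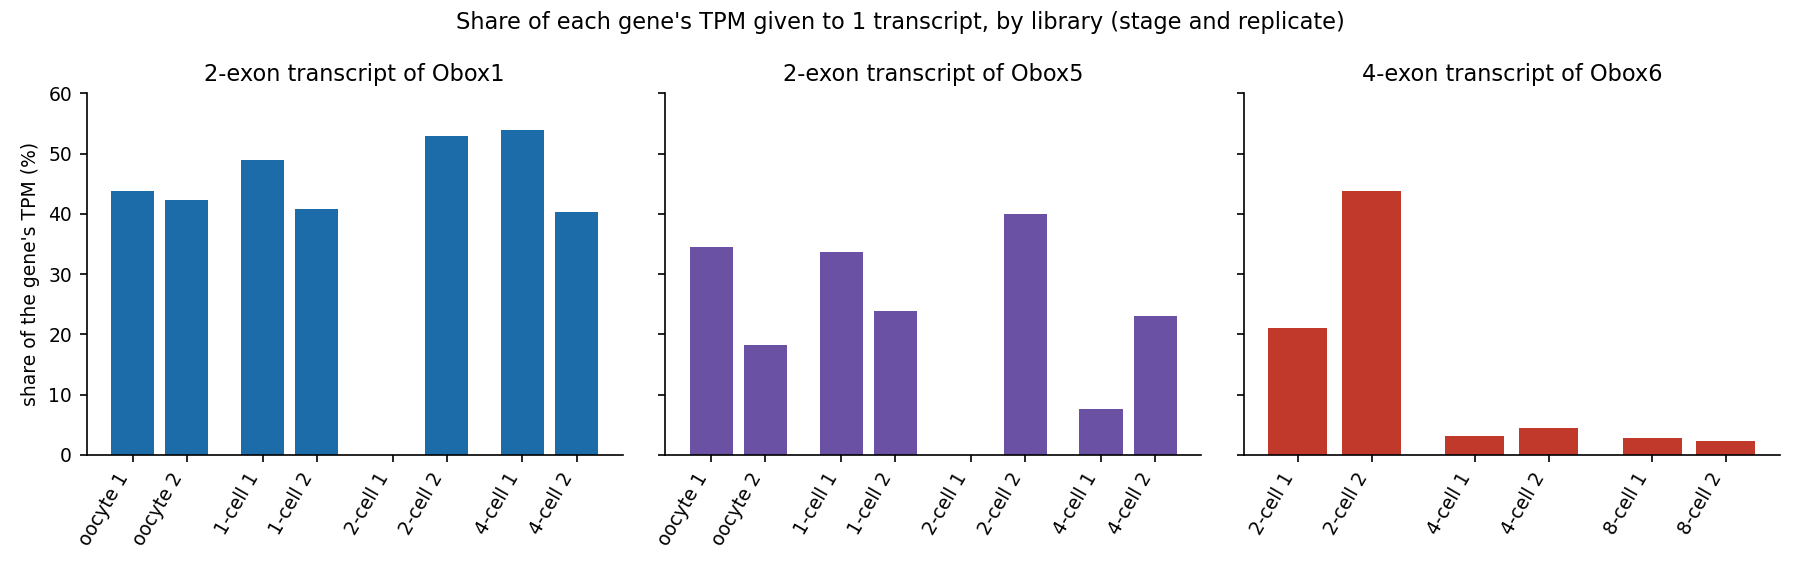
Share of the TPM of a gene, in percent, given to the 2-exon transcript of Obox1 (TCONS_00017849), the 2-exon transcript of Obox5 (TCONS_00017854) and the 4-exon transcript of Obox6 (TCONS_00018601), 1 bar per library. The Obox1 transcript takes 40.3% to 53.9% except in 2-cell replicate 1, where it is at 0, and the Obox6 transcript takes 21.1% and 43.8% at the 2-cell stage and at most 4.42% at the 4-cell and 8-cell stage. Stages with a gene near 0 are left out.

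Obox6 had 2 merged transcripts. TCONS_00018602 has the 3 annotated exons, and TCONS_00018601 adds an exon of 227 bases at chr7:15836064-15836290 between the leading exon and the coding exons. TCONS_00018602 had 57.7 and 161 TPM at the 2-cell stage, 1173 and 1172 TPM at the 4-cell stage and 331 and 204 TPM at the 8-cell stage. TCONS_00018601 had 15.4 and 125 TPM, then 37.9 and 54.2 TPM, then 9.50 and 4.79 TPM at these stages. Its share of the gene was thus 21.1% and 43.8% in 2-cell embryos, 3.13% and 4.42% in 4-cell embryos and 2.79% and 2.3% in 8-cell embryos, with no overlap between the 2-cell libraries and the later ones. A test of that share was not run.

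By transcript, 11 of the 16 were called from 1-cell to 2-cell by limma, 9 lower and 2 higher, over 20250 transcripts of which 28.0% were called, 5.11% lower and 22.9% higher. After quantile normalization the split over all transcripts was 3041 lower and 2620 higher. All 4 of Obox2 and 4 of the 5 of Obox1 were among the 9, with changes from -5.58 to -2.54, together with TCONS_00017851 of Obox5. Both transcripts of Obox6 rose, TCONS_00018602 by 6.08 (SE 0.85, limma adjusted p = 0.000791) and TCONS_00018601 by 5.44 (SE 0.85, limma adjusted p = 0.00112). TCONS_00018602 was also called from 2-cell to 4-cell, at 3.59 (limma adjusted p = 0.0458, with 2.63% of all transcripts called, 1.46% higher), and from 8-cell to blastocyst, at -6.71 (limma adjusted p = 0.00386, with 2.11% called, 1.28% lower). The first call was lost with 9 of the 12 libraries left out in turn, with adjusted p from 0.0551 to 0.311, and the second without 8-cell replicate 1 (adjusted p = 0.0832). From oocyte to 1-cell and from 4-cell to 8-cell 0 of 16 were called by limma, against 2.00% and 3.13% of all transcripts. At an unadjusted p under 0.05 there were 0 and 3 of 16, and 1776 and 3202 of all 20250. Between the pooled periods 15 of 16 were called, 2 higher and 13 lower, against 66.5% of all transcripts, 47.5% higher and 19.0% lower (6395 and 6201 transcripts after quantile normalization), and the exception was the transcript of Obox3.

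Most merged transcripts of Obox1, Obox2, Obox5 and Obox7 began near a shared stretch of promoter. RefSeq gives promoter windows for Obox1, Obox2, Obox3, Obox5 and Obox7 (GRCm38.p6, 300 bases each), and the following 30 bases, the same to the letter in Obox1, Obox3, Obox5 and Obox7, are shown because long-read ends of Obox1, Obox5 and Obox7 lie near them. The only Obox3 transcript begins 14109 bases from its copy. Capitals mark TATATAA, the letters of a TATA-box-like element, which bind the general transcription machinery in many promoters.
Obox1 (chr7:15547235-15547264, plus strand), Obox5 (chr7:15750336-15750365, plus strand), Obox7 (chr7:14659700-14659729, plus strand) and Obox3 (chr7:15639781-15639810, minus strand): agaTATATAAgggcaggtcttctgagtaga

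TATATAA occurred on either strand in 4 of the 5 Obox windows and in 3.24% of all 32851 promoter windows of that length. These 4 windows hold copies of the same 30 bases, so they are not separate occurrences to set against that share. The window of Obox2 ends before its copy, which starts at base 15388929. TCONS_00017848 and TCONS_00017849 of Obox1 and TCONS_00017845 of Obox2 each begin 30 bases after the start of the element, and TCONS_00017853 and TCONS_00017854 of Obox5 begin 13 and 19 bases after it. Other transcripts of the same genes begin upstream of the element, by 253 bases in TCONS_00017846 of Obox1, 254 bases in TCONS_00017851 of Obox5 and 220 bases in TCONS_00017843 of Obox2. Obox1, Obox2 and Obox5 thus each have transcripts with ends on both sides of the element. TCONS_00017850 of Obox1 begins farther downstream, at base 15548252. For Obox6 no promoter window was given, so the bases upstream of its transcripts could not be searched for TATATAA in this way. GGATTA, searched on both strands as the core that paired-like homeodomains of the bicoid type bind, was in 1 of the 5 Obox windows, that of Obox3, and in 7.06% of all windows. A match to these letters is a description of the sequence.

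Other Obox genes split along the same stages. Obox7, with 38 bases of its coding region differing from Obox1 beside gaps, had 78.3 and 36.5 TPM in the oocyte, 35.9 and 49.7 TPM at the 1-cell stage and 0.571 and 15.7 TPM at the 2-cell stage. It fell by 3.08 (SE 0.88, limma adjusted p = 0.0162), though the call was lost without 2-cell replicate 1, where it fell by 1.37 (adjusted p = 0.116), without either 1-cell library (adjusted p = 0.0584 and 0.104) and in the fit on 4 libraries (adjusted p = 0.0633). Obox8, which shared 0.00% of its placed words with other genes, followed the pattern of Obox6. It had at most 0.627 TPM in oocyte and 1-cell libraries, then 27.5 and 77.4 TPM at the 2-cell stage, 443 and 464 TPM at the 4-cell stage and 24.8 and 20.3 TPM at the 8-cell stage. Obox8 rose by 5.18 from 1-cell to 2-cell (SE 0.72, limma adjusted p = 0.000242) and fell by 4.28 from 4-cell to 8-cell (SE 0.72, limma adjusted p = 0.00924), a call lost when any 1 library of these 2 stages was left out.

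The transcribed pseudogenes and noncoding RNA of the family were highest in 2-cell replicate 2. Obox3-ps5 had 17.6 and 165 TPM at the 2-cell stage and 24.5 and 36.8 TPM at the 4-cell stage. Each of Obox3-ps2, Obox3-ps3, Obox3-ps5 and Obox4-ps35 was called higher from 1-cell to 2-cell by limma, with rises of 5.55, 4.20, 5.32 and 3.78. Long reads found their transcripts only in the 2-cell or 4-cell library, so they entered the annotation through the stages where they are high. Their rises are therefore a description and no independent result. The same holds for Obox8, found in long reads only from 2-cell to 8-cell. Of all genes, 26.1% were called higher in this step. The 2-cell replicates of Obox3-ps3 lay at 3.59 and 72.3 TPM, so the size of its rise rests largely on replicate 2. The pseudogenes Obox3-ps2 and Obox3-ps3 shared 86.6% and 85.6% of their placed words with other Obox genes, so reads could be divided among them.

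The genes most like each member over the 14 libraries were picked by Pearson's r of log2(TPM + 1) among 10724 genes. Those most like Obox1, Obox2 and Obox5 were likewise highest in oocyte or 1-cell libraries, as the way of picking them implies. Oosp3, an oocyte secreted protein gene, was the closest to Obox5 (r = 0.998), with 366 and 184 TPM in the oocyte, 578 and 421 TPM at the 1-cell stage and 9.21 and 232 TPM at the 2-cell stage. C87499 was the closest to Obox1 (r = 0.997) and Styk1 to Obox2 (r = 0.993), and Rfpl4 was second to both (r = 0.995 and 0.988). For Obox6 they were Trim43b (r = 0.988), Trim43c (r = 0.982) and Tdpoz4 (r = 0.982). Trim43b had 55.1 and 235 TPM at the 2-cell stage, 829.6 and 772 TPM at the 4-cell stage and 360.0 and 213 TPM at the 8-cell stage. The closest to Obox3, Prr32, reached only r = 0.832. These values describe libraries that share stages and come with no test.

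Of 25 other homeobox genes, 17 had a merged transcript, and all 17 were tested. From 1-cell to 2-cell 2 rose and 3 fell by limma, with a median change of 0.20 against 0.72 over all genes. Of all genes 26.1% were called higher and 6.20% lower in this step. Crxos rose by 6.18 (SE 1.05, limma adjusted p = 0.000729), with 7.03 and 2.95 TPM at the 1-cell stage and 156 and 1056 TPM at the 2-cell stage. It had 8572 and 4888 TPM at the 8-cell stage and 5837 and 717 TPM in blastocysts, where Obox6 had 4.59 and 0.167 TPM. Nobox, needed for the growth of oocyte follicles, fell by 2.75 (SE 0.64, limma adjusted p = 0.00511), and Lhx8, a LIM homeobox gene of oocytes, fell by 3.07 (SE 0.73, limma adjusted p = 0.00613). Hesx1, a paired-like homeobox repressor, rose by 3.66 (SE 0.81, limma adjusted p = 0.00391).

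Of 18 regulators of genome activation, 17 were tested, and 7 rose and 0 fell from 1-cell to 2-cell by limma, with a median change of 1.92. Over all genes 26.1% rose and 6.20% fell in this contrast. Klf5, a Krüppel-like factor, rose by 5.89 (SE 0.71) and Dppa4, a chromatin-associated factor, by 5.60 (SE 0.88), with limma adjusted p = 0.000121 and 0.000447. Of 18 genes of the 2-cell stage, 13 were tested, 10 rose and 0 fell, with a median change of 3.19. Usp17lb rose by 5.69 (SE 0.96) and Zscan4f by 4.46 (SE 1.06), with limma adjusted p = 0.000729 and 0.0059. In the pooled contrast 6 homeobox genes rose and 4 fell, among them Meis2, which fell by 4.73 (limma adjusted p = 8.54e-06). There 10 regulators rose and 2 fell, and 11 genes of the 2-cell stage rose and 1 fell. Of all genes 68.0% were called in this contrast, 47.5% higher and 20.5% lower.

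The rule that assigns transcripts also moved some levels. Counting only transcripts that share an annotated intron drops the 2-exon transcripts, and Obox1 then had 964 and 220.3 TPM in the oocyte and 445 and 419 TPM at the 1-cell stage. Over the long-read transcripts of the own stage alone, Obox1 had 381 and 332 TPM at the 1-cell stage. Obox2 is the most exposed to the rule, because 3 of its 4 transcripts overlap an annotated isoform of Obox1. Without these 3 it kept 108 and 29.3 TPM in the oocyte and 55.1 and 37.5 TPM at the 1-cell stage.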

How the data were processed

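The authors made transcripts from PacBio reads with Iso-Seq3, placed them on mm10 with GMAP, merged the 7 stages with Cuffmerge and deposited exon coordinates. Short reads were given by the authors to these transcripts with salmon and deposited as TPM, both for all merged transcripts and for those of the own stage. TPM keeps no depth. Transcripts were assigned to GENCODE vM21 genes (GRCm38) by the largest exon overlap on the same strand. The paper's methods name vM20.

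Features that reached 1 TPM in 2 or more of the 12 libraries from oocyte to blastocyst were tested with limma 3.58.1 in R 4.3.3 (eBayes with trend) on log2(TPM + 1) with stage as the only term, Benjamini-Hochberg adjusted per contrast, and called at an adjusted p under 0.05. P-values measure the spread between 2 batches per stage. Titles and file names number the 8-cell replicates in opposite ways, and the titles were followed. Alternatives were another pseudocount, filters, scaling, weights, blocks, assignment rules and each library left out. The members and all gene lists were chosen with earlier results of these data known. Named genes are the members, every other Obox gene with a merged transcript, for each list the 2 called genes with the largest rise and fall in 2 contrasts, of which some are printed, and the 3 genes most like each member.

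Bases of merged transcripts were placed from the vM21 transcript sequences and RefSeq promoter windows, and unplaced bases were left out. Alignments used Biopython 1.88, exact permutation tests scipy 1.17.1. The fits were tested on simulated data. Protein sequences and read-level assignment were not analysed here.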

Additional observations from a re-analysis of the deposited data

How the results depend on the processing

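Over 22 alternatives, the changes from 1-cell to 2-cell of Obox1, Obox2 and Obox6, the fall of Obox6 from 8-cell to blastocyst and the pooled changes of Obox1, Obox2, Obox5 and Obox6 kept direction and call. The fall of Obox5 from 1-cell to 2-cell lost its call in 16. With 1 library left out, Obox3 ranged from -0.30 (without 2-cell replicate 2) to 2.75 (without 2-cell replicate 1) from 1-cell to 2-cell, and in the pooled contrast from -0.86 to 0.16, with the sign turned without 1-cell replicate 1 (0.05) or 2-cell replicate 1 (0.16). TPM without depth, and 2 libraries per stage with an uneven spread, limit every call.

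Counts of all genes called moved by more than 1.5 times as follows, and the cause was not tested. From oocyte to 1-cell 38 genes were called, but 98 in the fit on 4 libraries, 1 with no filter, 23 with a pseudocount of 0.1, 9 after quantile normalization and 86 with the spread weighted by stage, and 0 to 224 with 1 library left out. From 1-cell to 2-cell 3227 became 2080 on 4 libraries and 1531 weighted by stage, and 1677 (without 1-cell replicate 2) to 3809 (without 2-cell replicate 2) with 1 library left out. Quantile normalization changed the split there from 2607 higher and 620 lower to 1591 and 1757, and in the pooled contrast from 4751 and 2052 to 3209 and 3260. From 2-cell to 4-cell 340 became 0 on 4 libraries, 85 with a pseudocount of 0.1, 1076 after quantile normalization, 1 weighted by stage and 0 to 1714 with 1 library left out. From 4-cell to 8-cell 167 became 3482 on 4 libraries, 261 after quantile normalization, 3921 weighted by stage and 0 to 886 with 1 left out. From 8-cell to blastocyst 300 became 555 weighted by stage and 24 to 801 with 1 left out. Where a stage was left with 1 library, it was assumed to vary like the other stages.

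Of the members, 1 was called from 2-cell to 4-cell after quantile normalization and 0 to 4 with 1 library left out, and 4 from 4-cell to 8-cell on 4 libraries or weighted by stage and 0 to 3 with 1 left out. Of their transcripts, from 2-cell to 4-cell 0 were called with a pseudocount of 0.1 or, as an alternative chosen after seeing the data, weighted by stage, and 0 to 8 with 1 library left out. From 4-cell to 8-cell it was 1 with a pseudocount of 0.1, 8 weighted by stage and 0 to 2 with 1 left out, and from 8-cell to blastocyst 2 weighted by stage and 0 to 2 with 1 left out. Over all transcripts the same fits called, of 20250, 144 and 1 in the first of these 3 steps, 630 and 6269 in the second and 730 in the third, and with 1 library left out 2 to 2558, 0 to 1823 and 8 to 1128. The highest of these counts came without a 2-cell library. Without 2-cell replicate 1, 8 member transcripts and 2489 of 20158 were called from 2-cell to 4-cell.

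Whether equal replicate numbers mark a batch shared between stages could not be told. Deviations of equal numbers in adjacent stages correlated at -0.09, -0.33, 0.36, -0.12 and 0.48. The last 2 would turn sign with the other numbering of the 8-cell libraries. A replicate block gave 1, 2894, 87, 89, 226 and 6588 genes in the 5 steps and the pooled contrast, 0 member transcripts from 2-cell to 4-cell, and for Obox5 from 1-cell to 2-cell an adjusted p = 0.0563 by limma. A crossed replicate block, added after seeing the data, gave 1, 3099, 148, 120, 260 and 6710.

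Words of 75 bases were shared to 41.3% in Obox1, 48.2% in Obox2, 4.07% in Obox5, 0.00% in Obox3 and 0.00% in Obox6, and words of 150 bases to 26.3%, 31.4%, 0.00%, 0.00% and 0.00%.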
